A study of Mus musculus with 39 samples.

Results

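Ion channels and ion transporters set the membrane potential, volume and pH of microglia, the resident macrophages of the brain, and 8 such genes are described here across a study of striatal microglia in mice. They were chosen by name: the potassium channel genes Kcnk13, Kcnk6, Kcna3 and Kcnn4, the proton channel gene Hvcn1, the calcium-permeable channel genes Trpm2 and Trpv2, and the chloride transporter gene Slc12a2. All 8 were found among the 55487 gene identifiers of the table, and 7 of the 8 passed the filter on low counts; Kcnn4 did not.

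RNA was sequenced from microglia of male mice aged 8 to 10 weeks, sorted from the striatum as live CD11b positive, CD45 low, P2RY12 positive cells. Each mouse had received lipopolysaccharide (LPS, a bacterial cell wall component that provokes inflammation) at 4500 endotoxin units per gram into the peritoneum, or saline (SAL), and cells were taken 18 hours later. Each library also carries a prenatal term, MIA (maternal immune activation) or CON, and an arm term, PLX or CON; the labels define neither the PLX term nor a strain, and no transgene or deletion is named for any group. Arms are named by both terms, the prenatal one first, so that MIA:PLX is prenatal MIA with PLX. There were 4 LPS libraries in CON:CON and 6 in each other arm, and 3 saline libraries in MIA:PLX and 4 in each other arm. Nothing states that replicates come from different mice; p-values therefore cover the spread of these libraries alone, part of which may be technical.

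At rest, microglia are polarized mainly by tandem-pore potassium channels, and the current through the one that Kcnk13 encodes keeps their processes branched and moving. Inflammatory activation is known to add outward potassium current through a Shaker-family voltage-gated channel, encoded by Kcna3, and potassium leaving the cell is a known trigger of the NLRP3 inflammasome. The proton channel of Hvcn1 carries out the acid and charge that NADPH oxidase leaves behind in the cytosol, and the sodium-potassium-chloride cotransporter of Slc12a2 loads cells with chloride and restores their volume after shrinkage.

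The 37 libraries used held between 1510020 and 5746239 counts (median 3095162). Titles mark a further 2 libraries for exclusion, and these were left out. One of them, MIA_PLX_SAL replicate 1, was the closest match to MIA_CON_LPS replicate 6 among 741 pairs of libraries (chi-square divided by its degrees of freedom 1.53, from 11605 genes, against 2.42 for the next pair), and both lay between the LPS and saline libraries in Slc12a2, so results that rest on MIA_CON_LPS replicate 6 are also given without it. The summed level of 8 microglia markers was 6378 to 14606 CPM of the library total (CPM is the count scaled to a common total) in the LPS libraries and 17360 to 19414 in the saline libraries, and all 8 were detected; P2ry12, one of the sorting markers, fell after LPS (log2 fold change -2.90, edgeR quasi-likelihood adjusted p = 6.75e-16 for the mean of the arms). Summed markers of monocytes (6 genes) were 9.79 to 564 in LPS libraries and 2.74 to 19.0 in saline libraries, and those of neutrophils (6 genes) 3.32 to 124 and 0 to 74.1. Lymphocyte markers (6 genes) reached at most 1.45 in LPS libraries and 0.972 in saline libraries, with Cd3g, Nkg7 and Trbc2 at 0 in all. In sorted bulk samples, fewer cells of a type and less RNA per cell cannot be told apart, and the part of the other cell types in the results was not tested except where a value is given.

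LPS moved 2 of the 8 genes in opposite directions in every arm. Slc12a2 fell and Kcna3 rose in each of the 4 arms, in the test across all 13420 genes. Kcna3 passed the filter on low counts only through its LPS libraries, so its calls are no separate support. Hvcn1 was called higher in the mean of the 4 arms but was not called in any arm alone. Kcnk13, Kcnk6, Trpm2 and Trpv2 were not called in any arm, and Kcnn4 was close to undetected. No gene of the 7 tested was called between MIA and CON, between PLX and no PLX, or in an interaction.

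Against the background, the count of called genes among the 8 was 1 higher and 1 lower in every arm. In CON:CON, 23.6% of all genes tested were called after LPS, 13.7% higher and 9.84% lower (adjusted p under 0.05, edgeR). The share was 25.4% in MIA:CON, with 14.5% higher and 10.9% lower. It was 31.5% in CON:PLX, with 17.5% higher and 14% lower, and 22.3% in MIA:PLX, with 11.8% higher and 10.4% lower. In the mean of the 4 arms 2 of the 8 were higher and 1 lower, against 56.4% of all genes tested in either direction, 30.3% higher and 26% lower. These counts lie near the shares of all genes, and the members are described one by one.

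**Figure D1:**
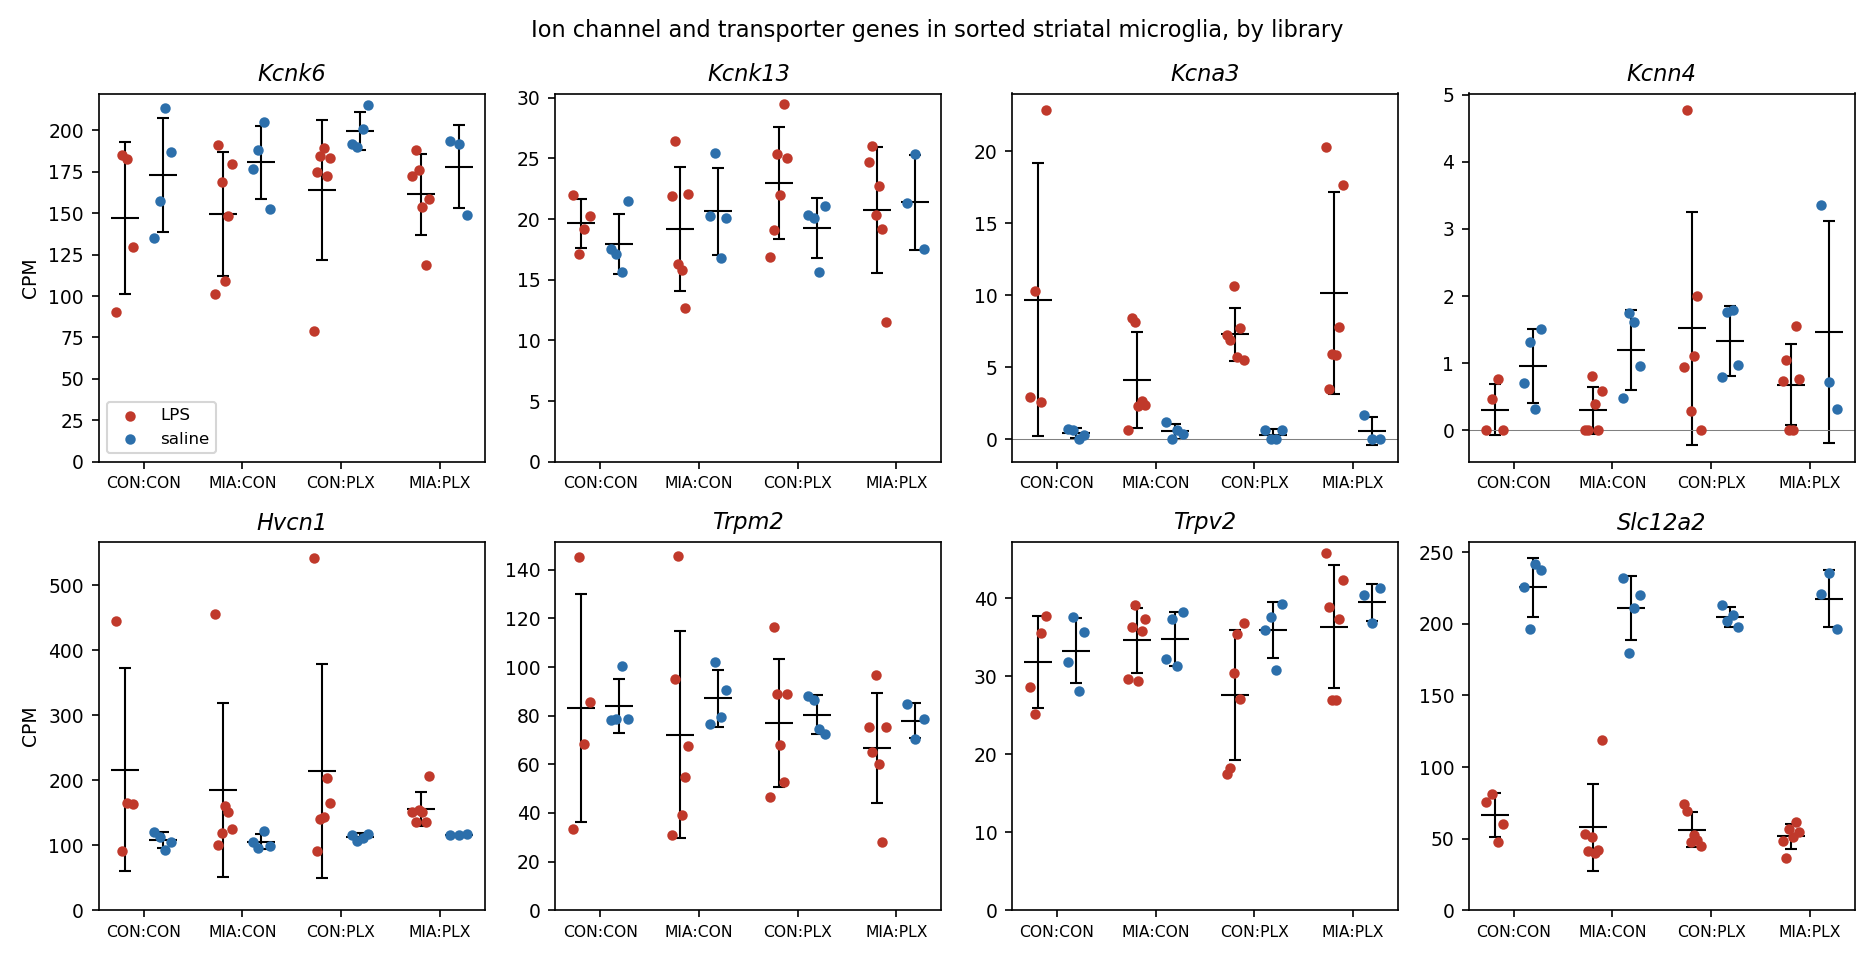
Level of each of the 8 genes in each library, in CPM on a linear axis of its own for each gene; points are libraries, the long tick and bar are the mean and SD of a group, and LPS (red) stands left of saline (blue) in each arm. Slc12a2 separates the injections in every arm, Kcna3 is near 0 in saline libraries, and 3 LPS libraries stand far above the rest in Hvcn1, at 445, 542 and 456 CPM.

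Kcnk13 encodes the tandem-pore channel named above, and its level changed little. Its CPM, here and below scaled by TMM library sizes, ran from 11.5 to 29.5 with a median of 21.1 in the 22 LPS libraries, and from 15.6 to 25.4 with a median of 20.1 in the 15 saline libraries. The ranges overlapped in every arm. The log2 fold changes after LPS were 0.13 in CON:CON, -0.09 in MIA:CON, 0.25 in CON:PLX and -0.02 in MIA:PLX, with adjusted p by edgeR between 0.369 and 0.962. For the mean of the arms, the 95% interval of the log2 fold change was -0.15 to 0.28.

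Kcnk6 encodes another tandem-pore potassium channel, which in macrophages passes potassium out of the cell ahead of NLRP3 activation. It was far more abundant than Kcnk13, also per length of transcript. Its median was 173 CPM in LPS libraries (range 78.8 to 191) and 190 CPM in saline libraries (range 135 to 215). In CON:PLX all 6 LPS libraries, 78.8 to 189 CPM, lay below all 4 saline libraries, 190 to 215 CPM, a separation in this direction that 13.8% of all genes tested also showed. The fitted change there was not called (log2 fold change -0.28 with SE 0.21, edgeR adjusted p = 0.310), and in the other arms the groups overlapped. The mean of the arms was -0.23 with SE 0.11 (edgeR adjusted p = 0.0652). That value sits at the threshold: it was called with RLE size factors (-0.27, adjusted p = 0.0323), with DESeq2 (-0.27, adjusted p = 0.0291), with limma voom (-0.19, adjusted p = 0.0395), and without any one of CON_CON_LPS replicates 2 and 4, CON_CON_SAL replicate 1, MIA_CON_LPS replicate 2 and MIA_PLX_SAL replicate 4 (-0.25 to -0.27, edgeR adjusted p 0.0329 to 0.0456). It was also called without CON_CON_LPS replicate 4 and MIA_PLX_LPS replicate 2 together (-0.28, edgeR adjusted p = 0.0318). Without the LPS replicates numbered 1 in CON:CON, CON:PLX and MIA:CON, which were low in Kcnk6, the change was smaller and not called (-0.13 with SE 0.08, edgeR adjusted p = 0.178). Leaving these out was not planned in advance, and since they held the lowest LPS values it shrinks the change by itself.

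Kcna3 encodes the voltage-gated channel associated with activated microglia and effector T cells. It lies on chromosome 3, at chr3:107036169-107038070 on the plus strand of GRCm38, and was nearly silent after saline. In CON:CON its level was 2.95, 10.3, 2.56 and 22.8 CPM in the LPS libraries, against 0.701, 0.659, 0 and 0.253 CPM in the saline libraries. In MIA:CON the 6 LPS libraries ran from 0.592 to 8.43 CPM with a median of 2.49, against 1.20, 0, 0.646 and 0.318 CPM in the saline libraries. Every LPS library was above every saline library in CON:CON, and 5 of 6 were in MIA:CON; the exception, MIA_CON_LPS replicate 1, had a single count. In CON:PLX the LPS libraries ran from 5.49 to 10.6 CPM with a median of 7.04, against 0.599, 0, 0 and 0.649 CPM in the saline libraries. In MIA:PLX they ran from 3.47 to 20.3 CPM with a median of 6.84, against 1.68, 0 and 0 CPM in the saline libraries. The groups did not overlap in either PLX arm, and CON:PLX was the most even of the 4 LPS groups, with an SD of 1.85 CPM against 3.34 to 9.48 CPM in the others. LPS above saline without overlap was seen for 11.7% of all genes tested in CON:CON, 14% in CON:PLX and 12.1% in MIA:PLX.

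The log2 fold change of Kcna3 was 4.42 with SE 0.88 in CON:CON, 2.72 with SE 0.84 in MIA:CON, 4.46 with SE 0.87 in CON:PLX and 3.95 with SE 0.93 in MIA:PLX. Adjusted p by edgeR was 0.000346, 0.0164, 0.000157 and 0.00193 in that order of arms. The mean of the arms was 3.89 with SE 0.44 (adjusted p = 2.91e-09). These folds are imprecise because the 15 saline libraries held 25 counts in all, 6 of them none, against 516 counts in the 22 LPS libraries. Kcna3 passed the filter only through its LPS libraries, so these p-values are no separate support. The call in MIA:CON was lost when saline replicate 4 of that arm was left out (2.53, edgeR adjusted p = 0.0525) and with the share of mitochondrial ribosomal RNA as a covariate (2.03, edgeR adjusted p = 0.114). When only the groups compared were fitted there, Kcna3 did not pass the filter on low counts. In MIA:PLX, 6 counts in saline replicate 2 carried the whole saline level, and without that library the fitted log2 fold change was 8.05, a value that then depends on the prior count (adjusted p between 0.00119 and 0.0214 over the 9 libraries left out in turn). The antisense gene Gm27008 overlaps the locus but shares 0 of its 1902 exon bases and had at most 5 counts. Of the 6 lymphocyte markers, whose sums are given above, Cd3g, Nkg7 and Trbc2 were at 0 in every library. Cd3e had counts in MIA_CON_LPS and MIA_PLX_SAL, Ms4a1 in CON_PLX_SAL and MIA_CON_LPS, and Cd79a in every group except MIA_CON_SAL; their part in the Kcna3 result was not tested. Summed markers of dissociation stress (10 genes, among them Fos and Jun) were 1620 to 10105 CPM of the total after LPS and 2476 to 9207 after saline. They were 8148, 10105 and 9095 in the LPS libraries highest in Kcna3 (CON_CON_LPS replicate 5, MIA_PLX_LPS replicates 1 and 6). In those lowest in Kcna3 (MIA_CON_LPS replicates 1, 4 and 6) they were 3646, 4987 and 6426. The part of this stress in the Kcna3 result was not tested. MIA_PLX_SAL replicate 1, left out, had 3.50 CPM of the total.

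The sequences before Kcna3 and Kcnk13 are shown because one of these potassium channels rose after LPS and the other did not pass the test in any arm. RefSeq start regions (GRCm38.p6) were given for 5 of the 8 genes, not for Hvcn1, Kcnk6 or Slc12a2. Each line holds the 250 bases before the annotated start, 5′ to 3′ on the plus strand, at chr3:107035912-107036161 for Kcna3 and chr12:99964249-99964498 for Kcnk13; capitals mark the SP1 motif GGGCGG.
Kcna3: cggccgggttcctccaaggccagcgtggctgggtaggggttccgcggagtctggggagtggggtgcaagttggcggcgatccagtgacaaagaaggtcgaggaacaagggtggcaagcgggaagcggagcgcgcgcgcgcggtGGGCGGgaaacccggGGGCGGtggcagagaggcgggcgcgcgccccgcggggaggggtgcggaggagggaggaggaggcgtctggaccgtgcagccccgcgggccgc
Kcnk13: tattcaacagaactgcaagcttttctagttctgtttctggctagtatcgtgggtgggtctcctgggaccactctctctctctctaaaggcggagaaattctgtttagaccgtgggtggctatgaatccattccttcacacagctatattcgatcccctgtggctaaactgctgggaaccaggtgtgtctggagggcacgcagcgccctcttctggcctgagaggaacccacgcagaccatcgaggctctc
The Kcna3 window held 2 SP1 motifs and was 74.4% G and C, above the 95th percentile (73.6%) of 32851 start regions. The Kcnk13 window held none and was 52.8% G and C, against a median of 52.4%. With both strands searched, GGGCGG occurred in 32.7% of all windows of this length, the PU.1 motif GAGGAAGT in 2.44%, the AP-1 motif TGANTCA in 6.75%, the interferon element GAAANNGAA in 7.13% and the NF-kB motif in 7.25%. The Kcna3 window held no PU.1, AP-1, interferon or NF-kB match, and the Kcnk13 window held 1 interferon element match and none of the other 3. In these letters, the Kcnn4 window had 1 NF-kB and 1 SP1 match and the Trpm2 window had 1 SP1 match. Of the 3 Trpv2 windows, 2 that overlap each other had a PU.1 match each, and the other had 1 NF-kB match. A match or its absence is a description of these letters.

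Kcnn4 encodes a calcium-activated potassium channel of immune cells. It was at the limit of detection, with 55 counts over the 22 LPS libraries, 8 of them at 0, and 66 counts over the 15 saline libraries, none at 0. The highest was 18 counts in CON_PLX_LPS replicate 2, or 4.77 CPM. With no filter on low counts, so that 28950 genes were tested, it was not called in any contrast (mean of the arms -1.07 with SE 0.46, edgeR adjusted p = 0.0719). It passed the filter when either of MIA_PLX_SAL replicates 3 and 4 was left out, and was then called lower after LPS in the mean of the arms (-1.15 and -1.18, edgeR adjusted p = 0.0444 and 0.0343). It was called in no arm alone in those fits. At so few counts the value lies at the threshold.

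Hvcn1 encodes the voltage-gated proton channel, at chr5:122206804-122242297 on the plus strand, and with Kcnk6 was the most abundant of the 8 per length of transcript. In CON:CON it had 445, 91.6, 164 and 163 CPM in the LPS libraries, against 121, 113, 92.5 and 104 CPM in the saline libraries. In MIA:CON the LPS libraries ran from 101 to 456 CPM with a median of 138, against 106, 96.1, 122 and 98.4 CPM in the saline libraries. Both arms overlapped: 3 of 4 LPS libraries in CON:CON and 4 of 6 in MIA:CON exceeded every saline library. In CON:PLX the LPS libraries ran from 91.1 to 542 CPM with a median of 154, against 116, 107, 111 and 118 CPM in the saline libraries. In MIA:PLX they ran from 135 to 207 CPM with a median of 152, against 115, 116 and 117 CPM in the saline libraries. All 6 LPS libraries were above all 3 saline libraries in MIA:PLX, and 5 of 6 were in CON:PLX. In MIA:PLX 12.1% of all genes tested also had every LPS library above every saline library.

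The log2 fold change of Hvcn1 was 1.0 in CON:CON, 0.80 in MIA:CON, 0.92 in the CON:PLX arm and 0.42 in the MIA:PLX arm, with SE 0.40 to 0.43. None was called (edgeR adjusted p 0.0846, 0.134, 0.0733 and 0.533). The mean of the arms, 0.79 with SE 0.21, was called (adjusted p = 0.00157). Much of that size rested on 3 libraries, the LPS replicates numbered 1 in CON:CON, CON:PLX and MIA:CON, at 445, 542 and 456 CPM where the other 19 LPS libraries had 91.1 to 207 CPM. Leaving out these 3, the highest in Hvcn1, was not planned in advance, and by itself it lowers the change in their arms. Without them the 4 arms stood at 0.38, 0.31, 0.39 and 0.42 in the order CON:CON, MIA:CON, CON:PLX and MIA:PLX. The mean of the arms was then 0.38 with SE 0.09, still called (edgeR adjusted p = 0.000924), though no arm was alone (adjusted p 0.0910 to 0.209). Since the libraries left out held the highest of the values tested, these values and p-values are no separate support. With single libraries left out, Hvcn1 was called in CON:CON without CON_CON_LPS replicate 2, CON_PLX_LPS replicate 1 or MIA_CON_LPS replicate 1 (1.01 to 1.26, edgeR adjusted p 0.0331 to 0.0382). It was called in CON:PLX without CON_CON_LPS replicate 1, CON_PLX_LPS replicate 2 or MIA_CON_LPS replicate 1 (0.92 to 1.08, edgeR adjusted p 0.0323 to 0.0440). Limma voom with quality weights gave smaller changes in CON:CON (0.52), MIA:CON (0.45) and CON:PLX (0.48), and a slightly larger one in MIA:PLX (0.48). Of the arms, voom called only CON:PLX (adjusted p = 0.0358, against 0.0795 in MIA:PLX). Its change in the mean of the arms was 0.48 (voom adjusted p = 0.000430).

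The same 3 libraries were low in Kcnk6, which had 90.2, 78.8 and 101 CPM in them, against 109 to 191 CPM in the other 19 LPS libraries. Trpm2 had 33.5, 46.4 and 30.8 CPM, within the 28.0 to 146 CPM of the other 19. Their summed microglia markers, 7730, 6378 and 7634 CPM of the total, were the 3 lowest of the 37 libraries; their monocyte markers summed to 19.9, 37.6 and 9.79, and their neutrophil markers to 5.76, 24.9 and 7.07, each below the median of the LPS libraries (121 and 35.0). LPS replicate 1 of MIA:PLX did not share this pattern, with 151 CPM of Hvcn1. The part of these differences between libraries in the Hvcn1 result was not tested further. Hvcn1 shares 1574 of its 3563 exon bases with Tctn1 on the other strand, and the libraries keep no strand, so reads of the pair cannot be told apart there; Tctn1 itself had 7.95 to 30.2 CPM.

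Trpm2 encodes a calcium-permeable channel opened by ADP-ribose and oxidative stress. Its CPM ranged widely after LPS, from 28.0 to 146 with a median of 68.2, and narrowly after saline, from 70.4 to 102 with a median of 78.8. Between LPS and saline the level differed in no arm beyond that spread: the log2 fold changes were -0.01, -0.27, -0.07 and -0.22 with SE 0.33 to 0.36 (edgeR adjusted p 0.589 to 0.985). The mean of the arms had a 95% interval of -0.49 to 0.21.

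Trpv2 encodes a calcium-permeable channel used by macrophages in phagocytosis. It ran from 17.4 to 45.8 CPM with a median of 35.5 after LPS, and from 28.1 to 41.3 CPM with a median of 36.8 after saline. The lowest values, 17.4 and 18.3 CPM, were LPS replicates 1 and 2 of CON:PLX. The log2 fold change was -0.38 with SE 0.18 in that arm (edgeR adjusted p = 0.107) and -0.07, 0.00 and -0.13 in CON:CON, MIA:CON and MIA:PLX. Without CON_PLX_LPS replicate 6 it was called there (-0.48, edgeR adjusted p = 0.0434). The ranges of the groups overlapped in all 4 arms.

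Slc12a2 encodes the sodium-potassium-chloride cotransporter, at chr18:57878678-57946821 on the plus strand, and gave the clearest separation of the 8. In CON:CON it had 75.8, 81.3, 47.6 and 60.3 CPM in the LPS libraries, against 226, 196, 242 and 238 CPM in the saline libraries. In MIA:CON the LPS libraries ran from 40.1 to 119 CPM with a median of 46.7, against 232, 180, 211 and 220 CPM in the saline libraries. LPS libraries were below all saline libraries in both arms, and MIA_CON_LPS replicate 6, at 119 CPM, stood between the groups. In CON:PLX the LPS libraries ran from 44.6 to 73.9 CPM with a median of 50.8, against 213, 202, 206 and 198 CPM in the saline libraries. In MIA:PLX they ran from 36.8 to 61.6 CPM with a median of 53.0, against 221, 235 and 197 CPM in the saline libraries. The groups did not overlap in these arms either. LPS below saline without overlap was seen for 12.9% of all genes tested in CON:CON, 8.46% in MIA:CON, 13.8% in CON:PLX and 13.3% in MIA:PLX.

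The log2 fold change of Slc12a2 was -1.77 with SE 0.24 in CON:CON, -1.86 with SE 0.21 in MIA:CON, -1.86 with SE 0.21 in CON:PLX and -2.08 with SE 0.23 in MIA:PLX. Adjusted p by edgeR was 1.49e-06, 6.43e-08, 2.50e-08 and 2.50e-08 in that order of arms. Averaged over arms it was 3.71-fold lower after LPS than after saline (log2 fold change -1.89, 95% interval -2.12 to -1.67). Without MIA_CON_LPS replicate 6 the change in MIA:CON was -2.21 with SE 0.16 (edgeR adjusted p = 2.61e-12).

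**Figure D2:**
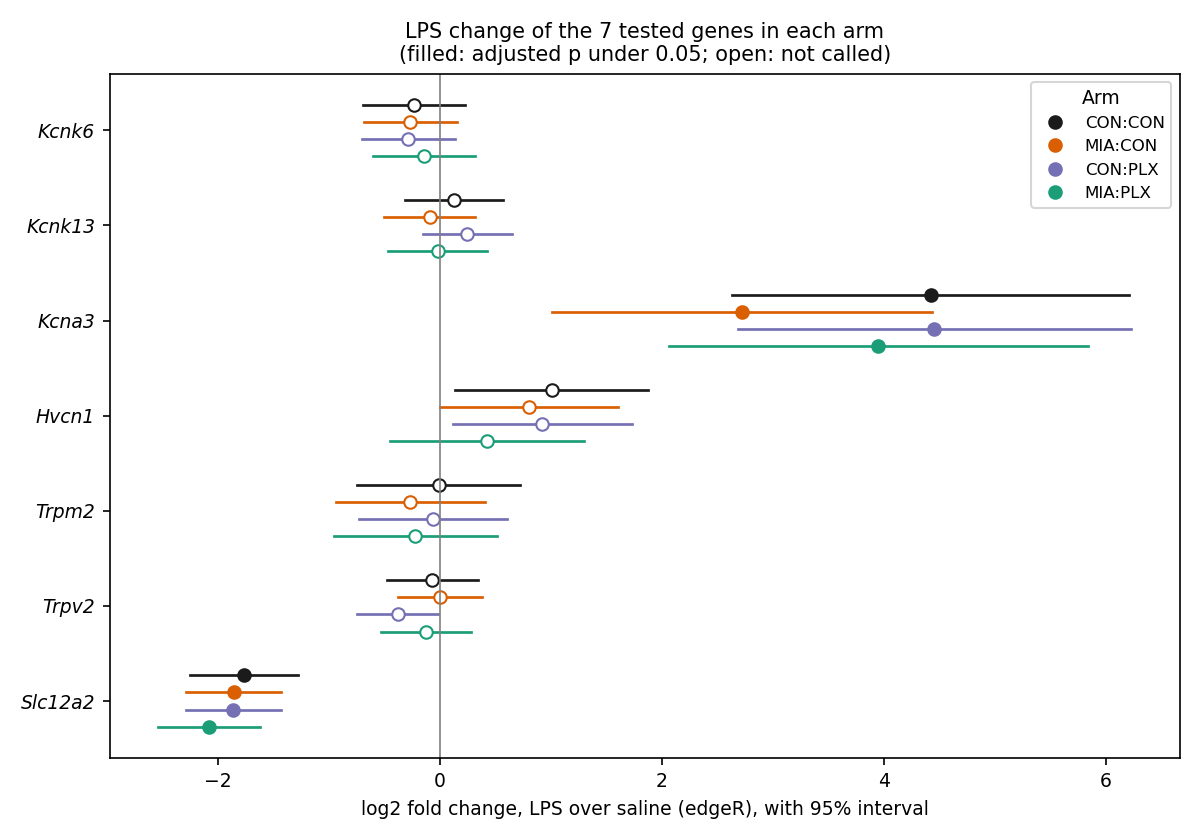
Log2 fold change of LPS over saline in each arm for the 7 genes tested (edgeR), with 95% intervals; filled points are called at an adjusted p under 0.05. Slc12a2 lies between -2.08 and -1.77 in all arms, Kcna3 between 2.72 and 4.46 with wide intervals, and no other gene is called in an arm.

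**Figure D3:**
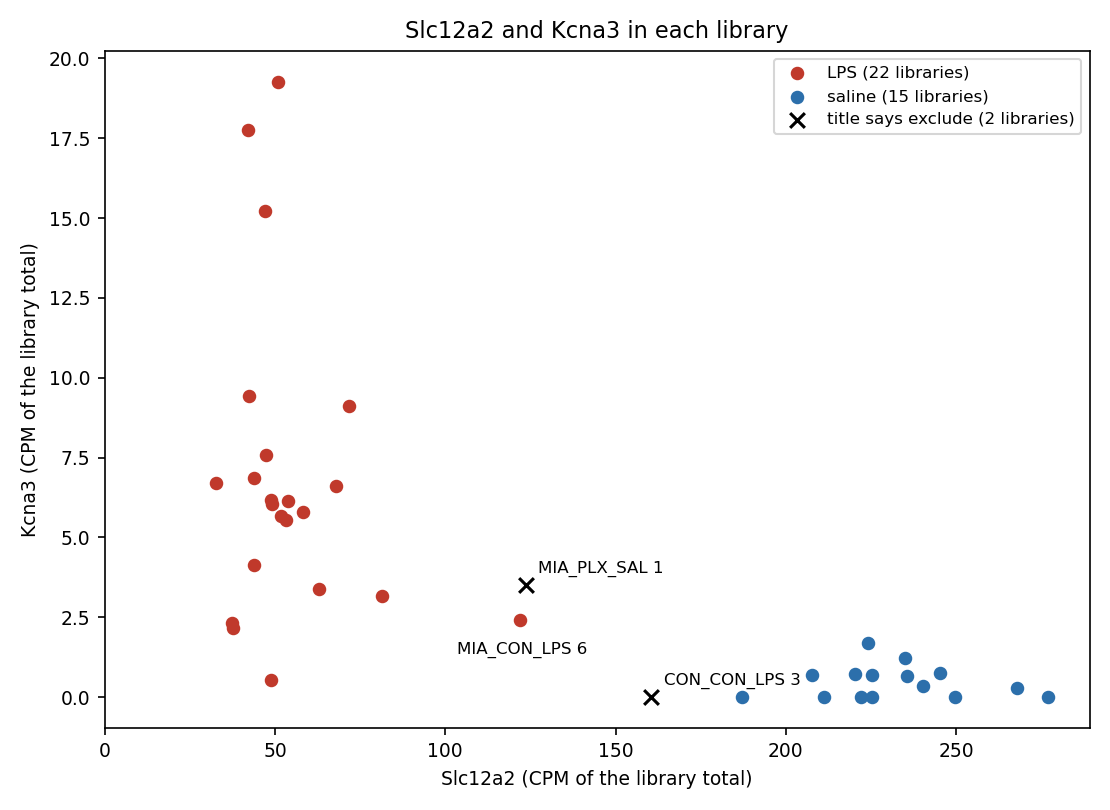
Slc12a2 on the horizontal axis and Kcna3 on the vertical axis, both in CPM of the library total, in 22 LPS libraries (red), 15 saline libraries (blue) and the 2 libraries whose titles mark them for exclusion (crosses). The saline libraries form a group at high Slc12a2 and low Kcna3, the excluded MIA_PLX_SAL replicate 1 (124 and 3.50) lies beside MIA_CON_LPS replicate 6, and the excluded CON_CON_LPS replicate 3 (160 and 0) lies between the groups.

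Levels of different genes are compared per kilobase of exon. Hvcn1 stood at 53.5 ± 34.4 CPM per kilobase in LPS libraries (SD, n = 22) and 30.9 ± 2.57 in saline libraries (SD, n = 15), and Kcnk6 at 37.6 ± 8.52 and 44.1 ± 5.86. Slc12a2 came next after saline, at 19.6 ± 1.67 CPM per kilobase, and at 5.24 ± 1.67 after LPS came below Trpv2 (7.28), Kcnk13 (6.66) and Trpm2 (5.94), all of which overlapped one another. Kcna3 was at 4.01 ± 3.08 CPM per kilobase in LPS libraries and 0.235 ± 0.265 in saline libraries. Kcnn4 was at 0.144 and 0.239. After LPS, Kcna3 overlapped the calcium-permeable channels in level; after saline it overlapped Kcnn4.

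Prenatal MIA and the PLX arm were then compared within each injection, with the interactions, in 12 contrasts. None of the 7 genes tested was called in any of them by edgeR, against 0% of all genes tested by edgeR in 10 of the 12 contrasts, 0.0149% (2 genes) for MIA against CON in PLX mice after LPS and 0.00745% (1 gene) for PLX against none in prenatal CON mice after LPS. DESeq2 and limma voom called none of the 7 either, and over all genes they called 0 to 25 and 0 to 2 genes per contrast. For these genes, only 2 values had an unadjusted p under 0.05. Kcna3 was higher in MIA:PLX than in MIA:CON after LPS by 1.23 on the log2 scale (SE 0.57, edgeR unadjusted p = 0.0371, adjusted p = 0.534). The levels were 10.2 ± 7.02 CPM in MIA:PLX and 4.08 ± 3.34 CPM in MIA:CON (SD, n = 6 each). Trpv2 was higher in MIA:PLX than in CON:PLX after LPS by 0.39 (SE 0.17, edgeR unadjusted p = 0.0235, adjusted p = 0.502). The levels were 36.3 ± 7.86 CPM in MIA:PLX and 27.6 ± 8.28 CPM in CON:PLX (SD, n = 6 each). Neither passed the threshold.

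The intervals show what these contrasts could miss. For Slc12a2, MIA against CON after LPS without PLX was -0.19 with a 95% interval of -0.63 to 0.25, and without MIA_CON_LPS replicate 6 it was -0.54 with SE 0.16 (edgeR unadjusted p = 0.00213, adjusted p = 0.262). In PLX mice the same contrast was -0.13 (interval -0.53 to 0.26). The interaction of MIA and LPS on Slc12a2 was -0.09 without PLX (interval -0.73 to 0.55) and -0.22 with PLX (interval -0.86 to 0.42). Without MIA_CON_LPS replicate 6 the interaction without PLX was -0.44 and not called, the lowest of 18 fits that each left out 1 library of these groups. For Kcna3 the intervals were wider: MIA against CON after LPS was -1.18 without PLX (interval -2.41 to 0.06) and 0.45 with PLX (interval -0.64 to 1.55). An adjusted p above the threshold does not show that the arms were alike.

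Other genes of the same pathways were counted in lists around the members, in the mean of the 4 arms, where 30.3% of all genes tested were called higher, 26% were called lower and the median log2 fold change was 0.03. In each count below, the genes tested are those that passed the filter on low counts. The lists and their counts are descriptions. Not every gene called in the mean was called in each arm. Kcnk12, Ncf1 and P2rx7 were not called in MIA:CON, Slc12a4 was not in MIA:CON or MIA:PLX, and Cyba was not in CON:CON or MIA:PLX. The other genes named below as rising or falling were called in each arm.

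Of 35 further potassium channel genes 13 were tested, 3 were higher and 6 lower, and the median log2 fold change was -0.49. Kcnd1, an A-type voltage-gated channel, fell (-2.11, SE 0.24, edgeR adjusted p = 3.88e-09), with a median of 21.9 CPM in LPS libraries and 83.4 CPM in saline libraries. The tandem-pore family member Kcnk12 (-3.15) and the inward rectifier Kcnj9 (-2.77) also fell, both low in level, with medians of 0.251 and 0.668 CPM in LPS libraries and 3.57 and 7.75 CPM in saline libraries. Most LPS libraries were thus below the minimum count of the filter, so the calls of Kcnk12 and Kcnj9 are no separate support. Kcna2, a Shaker-family relative of Kcna3, was not called (-0.49, adjusted p = 0.271).

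Of 31 TRP and related calcium-permeable channel genes 19 were tested, with 4 higher and 5 lower and a median of -0.05. Trpc4, a receptor-operated channel, rose, to a median of 10.9 CPM in LPS libraries (range 0.408 to 47.5), against 0 CPM in saline libraries (range 0 to 0.715). It was called (edgeR adjusted p = 3.28e-10), but it passed the filter only through its LPS libraries, so this p-value is no separate support. The endolysosomal channels moved apart: Tpcn2 rose by 1.49 (SE 0.16) and Tpcn1 fell (-1.91, SE 0.22). Orai2, a store-operated calcium channel subunit, was not called (-0.05, adjusted p = 0.774).

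Around Slc12a2, 8 of 14 chloride cotransporter genes and their kinases were tested, with 5 higher and 1 lower and a median of 0.55. Slc12a4, a potassium-chloride cotransporter that moves chloride outward, rose by 1.13 (SE 0.16, edgeR adjusted p = 1.36e-07), and the related Slc12a9 by 0.70 (SE 0.10). Wnk1, a kinase that activates the cotransporter of Slc12a2 and restrains the outward ones, rose by 0.77 (SE 0.10, adjusted p = 4.30e-08). Slc12a2 was thus lower after LPS while Slc12a4, Slc12a9 and Wnk1 were higher. Wnk3 was not called (-0.52, adjusted p = 0.205).

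The list of chloride and volume-regulated channels had 18 of 19 genes tested, 9 higher and 3 lower, with a median of 0.24. Lrrc8a, the obligatory subunit of the volume-regulated anion channel, rose by 1.41 (SE 0.09, edgeR adjusted p = 3.55e-15), with 110 to 220 CPM in the LPS libraries and 47.9 to 76.7 CPM in the saline libraries. Its partner subunit Lrrc8c rose by 1.91 (SE 0.20) and Clic4, a chloride intracellular channel protein, by 2.87 (SE 0.22). Clcn6, an endosomal chloride-proton exchanger, was not called (-0.03, adjusted p = 0.838).

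Around Hvcn1, 15 of 16 proton and bicarbonate transporter genes were tested, with 6 higher and 7 lower and a median of -0.28. The organellar sodium-proton exchangers Slc9a7 (-1.59, SE 0.16) and Slc9a9 (-1.83, SE 0.22) fell, and Slc9a3r1, a scaffold protein of the exchangers, rose by 1.29 (SE 0.13). The lactate transporter Slc16a3 was not called (0.07, adjusted p = 0.778). Of 11 NADPH oxidase genes 7 were tested, with 4 higher and 1 lower and a median of 0.59. Cybb, the catalytic subunit, rose by 4.07 (SE 0.27, edgeR adjusted p = 2.57e-14), with 27.5 to 234 CPM in LPS libraries and 2.57 to 11.8 CPM in saline libraries. Its membrane partner Cyba rose by 0.81 (SE 0.15) and the cytosolic subunit Ncf1 by 0.77 (SE 0.13), while Ncf4 was not called (0.00, adjusted p = 0.980).

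The sodium pump and exchangers had 11 of 14 genes tested, 6 higher and 2 lower, with a median of 0.30. Fxyd5, a pump regulator, rose by 3.66 (SE 0.37), with a median of 31.8 CPM in LPS libraries. In saline libraries its median was 2.24 CPM (range 0.955 to 5.36), near the floor of the filter, so its call is no separate support. The sodium-calcium exchanger Slc8a1 fell (-0.74, SE 0.11), and the pump subunit Atp1b1 was not called (0.06, edgeR adjusted p = 0.922). Of 12 genes for ATP-gated channels and the NLRP3 inflammasome 10 were tested, with 4 higher and 4 lower and a median of 0.13. Nlrp3 rose by 1.63 (SE 0.21) and Casp1 by 0.71 (SE 0.08), whereas the ATP-gated channel P2rx7, which lets potassium out, fell (-0.71, SE 0.11, edgeR adjusted p = 1.69e-06). Gsdmd, which forms pores when cleaved, was not called (0.07, adjusted p = 0.671). In none of the 12 contrasts of MIA or PLX was a gene of these lists called.

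**Figure D4:**
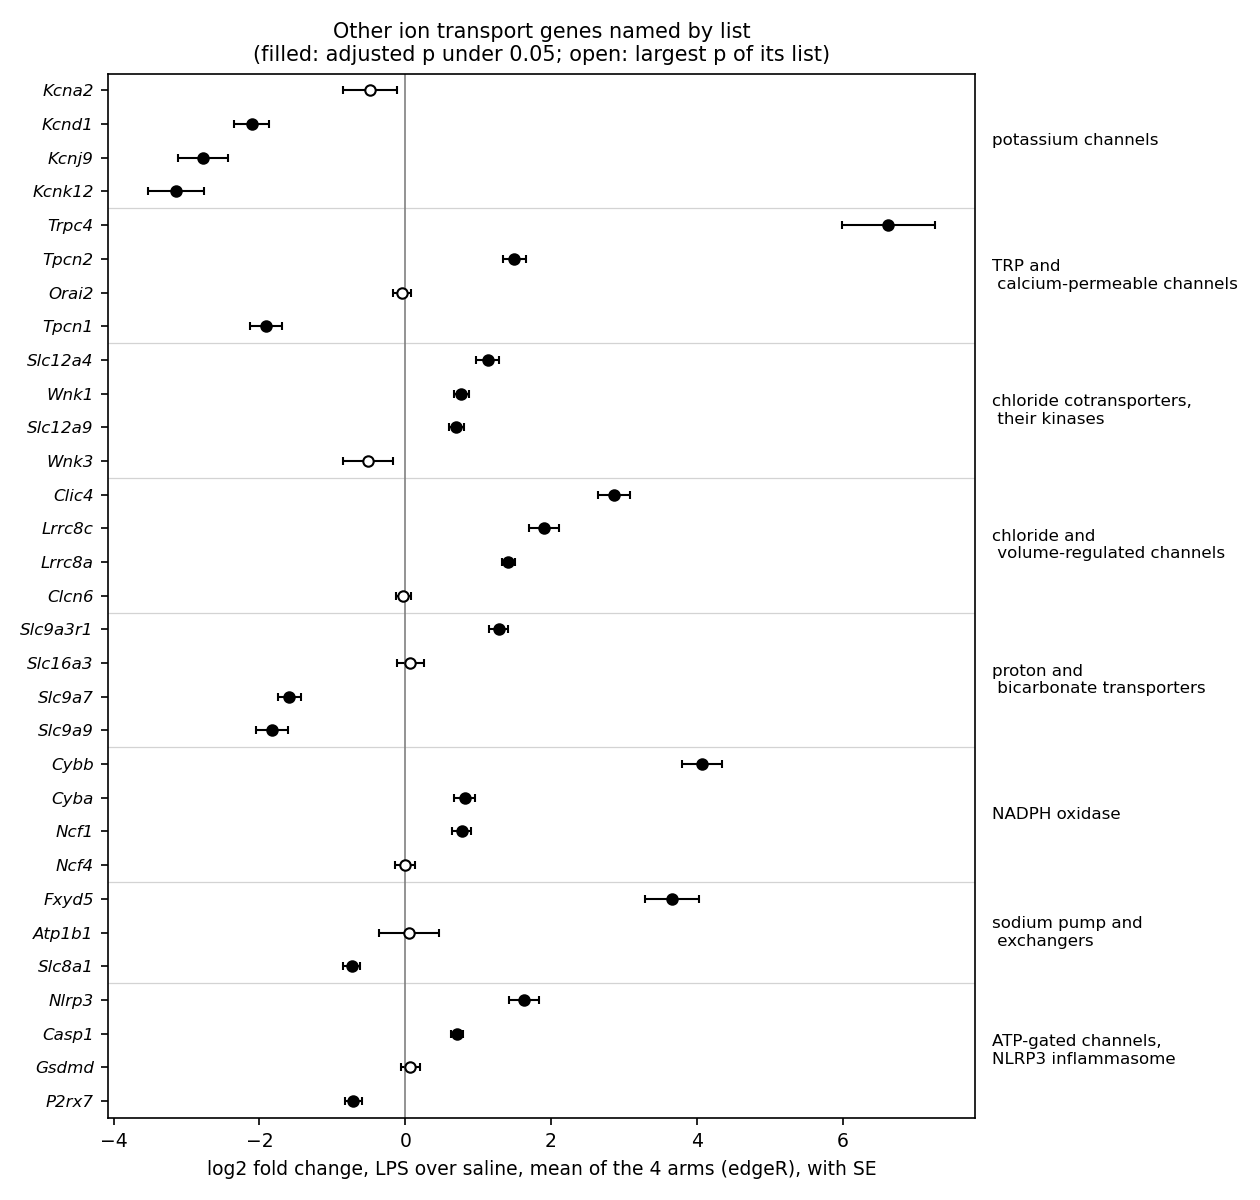
Log2 fold change of LPS over saline for the mean of the 4 arms (edgeR), with SE, for up to 3 called genes of smallest p and the gene of largest p in each list; filled points have an adjusted p under 0.05. Cybb (4.07) and Clic4 (2.87) lie far to the right, Kcnk12 (-3.15) far to the left; the value of Trpc4 depends on the prior count, since most saline libraries are at 0.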

How the data were processed

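The authors' deposited table holds estimated counts per gene (expected counts) for 39 libraries; 14.7% of nonzero values are not whole. The submitters' processing notes name RSEM, STAR and DESeq2 but neither version nor role, and a genome build is not given in the sources used here. Symbols and positions came from GENCODE M21 (GRCm38), in which 55141 of 55487 identifiers matched. Values were rounded to whole numbers. edgeR 4.0.16 (R 4.3.3) kept 13420 genes with filterByExpr (minimum count 10, minimum total 15) and removed 15530 with a count; 1 quasi-likelihood model with TMM scaling and a mean per group was fitted to 37 libraries, two-sided. In each of 17 contrasts, p-values were adjusted over all genes tested (Benjamini-Hochberg) with calls made below 0.05. The SE is the absolute change over the root of the F statistic; intervals are 95%. CPM uses TMM-scaled totals. The fit was tested on simulated data.

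The members and lists were chosen with earlier results of these data known, and so were the named genes: the 8 members, up to 3 called genes of smallest p and the gene of largest p in each list, and the 2 genes most alike in pattern to each tested member; 1 gene that this rule names is not reported here. Alternatives were RLE scaling, DESeq2 1.42.0, limma 3.58.1 voom with quality weights, no filter, both marked libraries included, only the groups compared, a replicate block, mitochondrial ribosomal RNA left out or as a covariate, and libraries left out. Linear amplification without strand or ribosomal RNA removal, per the labels' protocols, can distort levels between genes; p-values cover spread and counting error only.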

Additional observations from a re-analysis of the deposited data

Results flagged for a closer look

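In groups of 4 to 6 libraries, chance sets about 1 in 20 groups apart, and 6 of 56 (each gene in the 7 groups of at least 4) had a library far from the others. In CON_PLX_LPS replicate 1, Hvcn1 was 542 CPM, against 91.1 to 203 CPM in the other 5 libraries, and Kcnk6 was 78.8 CPM, against 172 to 189 CPM. In MIA_CON_LPS replicate 1, Hvcn1 was 456 CPM, against 101 to 160 CPM in the others. In MIA_PLX_LPS replicate 6, Hvcn1 was 207 CPM, against 135 to 154 CPM. Trpm2 was 101 CPM in CON_CON_SAL replicate 3, against 78.1 to 78.8 CPM in the other 3 saline libraries. Slc12a2 was 119 CPM in MIA_CON_LPS replicate 6, against 40.1 to 53.3 CPM in the others.

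Outside the libraries used, Kcna3 was 3.50 CPM of the library total (12 counts) in MIA_PLX_SAL replicate 1, marked for exclusion, while the 15 saline libraries used had 0 to 1.68 CPM. Its Slc12a2, 124 CPM of the total, was below the 180 to 242 CPM of those libraries. The values of the libraries used are scaled by TMM library sizes, not by the total, so both comparisons are across unlike scales.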

How the results depend on the processing

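Of the calls for single genes in the LPS contrasts, 127 of 128 held under the alternatives other than leaving out 1 library. These 128 do not count Kcna3 in MIA:CON where only the groups compared were fitted, since it had no value there. When a library was left out, 406 of 407 held, and no called value reversed. Many of these 407 left out a library outside the groups compared. Of the 37 libraries, 8 to 10 belonged to the groups of an arm. In MIA:CON, the 2 genes called fell to 1 (Slc12a2) when only the groups compared were fitted, where Kcna3 did not pass the filter, and to 1 with mitochondrial ribosomal RNA as a covariate (Kcna3 2.03, edgeR adjusted p = 0.114); leaving out a library gave 1 to 2. In the mean of the 4 arms, leaving out a library gave 3 to 5 genes called, against 3; the 5 came without MIA_PLX_SAL replicate 4, where Kcnk6 and Kcnn4 were also called lower. The labels do not say that a replicate number pairs libraries, and the main fit did not pair them. Of same-numbered pairs, 19 of 107 correlated over 0.1 (-0.25 to 0.66), against 56 of 487 pairs of different number (-0.48 to 0.49). The share was larger for the same number, and its source was not tested. As a hint from the data, 15 of 37 libraries correlated best with one of their own number. With the replicate block, Trpv2 was called in CON:PLX (-0.48, adjusted p = 0.0413). Among values not called, 7 of 1288 were called under an alternative and 12 of 3996 with a library left out, in or outside the groups compared.

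Counts over all genes moved by over 1.5 times in these cases. Voom called 6405 in CON:PLX, against 4228, and 4576 in MIA:PLX, against 2990. The covariate gave 2022 in MIA:CON, against 3403, and 2266 in CON:PLX; only the groups compared gave 2228 in MIA:CON. For MIA against CON in PLX mice after saline that fit called 136, against 0. In the other contrasts of MIA or PLX, 0 to 2 genes were called and the alternatives gave 0 to 25. Depth limits the precision of Kcna3, with 25 counts over the saline libraries, and of Kcnn4, with 55 over the LPS and 66 over the saline libraries.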

Other observations

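For each member with an average log2 CPM of at least 2, the 2 genes closest in pattern were sought among 9629 genes, by the mean absolute difference of the 8 group means of log2 CPM after centring. Closest to Slc12a2 were Tbc1d31 (0.04) and Arrb1 (0.06), over a range of 2.13 between the groups of Slc12a2. Closest to Kcna3 were Hhipl1 (0.12) and Itprip (0.13), over a range of 3.40. For Hvcn1, Tmem123 and Zmpste24 were closest, for Kcnk6 Ube3b and Serinc3, for Kcnk13 Ptpn9 and Rabl6, for Trpm2 Phf10 and Wars2, and for Trpv2 Tada1 and Clk1. The measure is over 8 groups that share the injection, and with ranges of 0.33 to 0.79 for these 5 members such closeness says little.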
